A study of Mus musculus with 2 samples.

Results

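The miR-181 family was measured with 10 of the 1900 mouse miRNA probes on each of 2 arrays, chosen by name as every arm of the miRNAs that the array calls mmu-miR-181a, mmu-miR-181b, mmu-miR-181c and mmu-miR-181d. The arrays held total RNA of mononuclear cells isolated from the colonic lamina propria, the connective tissue layer under the gut epithelium, of male Balb/c mice. The first array was hybridised with RNA from germ-free animals, which carry no microbes, and the second with RNA from specific pathogen-free (SPF) animals, which carry a gut microbiota. The labels used here give no age of the mice, no number of mice per RNA sample and no further treatment. With 1 array per group there is no replicate error and no test between the groups, so each difference below describes these 2 arrays.

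MicroRNAs pair through their seed, bases 2 to 8 from the 5′ end, with sites in messenger RNAs and lower the output of those messengers. Each precursor hairpin can give a mature miRNA from its 5′ arm (5p) and another from its 3′ arm (3p). The family is known for its part in lymphocyte development. miR-181a-5p is abundant in immature thymocytes, where it represses phosphatases that damp signalling from the T cell receptor. The miR-181a and miR-181b pair is needed for the development of natural killer T cells.

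The 4 5p arms share the seed ACAUUCA, which no mature miRNA outside the family carried in the RefSeq table (GRCm38.p6) from which all the sequences were taken. All 10 probe names matched an entry there. The 5p arms are shown because their readings lay apart although the seed is common, which is in capitals.

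miR-181a-5p: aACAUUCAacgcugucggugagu
miR-181b-5p: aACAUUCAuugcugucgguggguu
miR-181c-5p: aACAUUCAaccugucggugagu
miR-181d-5p: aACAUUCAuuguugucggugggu

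Outside the seed the 4 sequences fall into 2 pairs. miR-181a-5p and miR-181c-5p differ by 1 edit, a base that the 22-base miR-181c-5p lacks. miR-181b-5p differs from miR-181d-5p by C12U and by its length of 24 against 23 bases, with positions counted from 1 at the 5′ end and the first named miRNA's base first. From miR-181a-5p to miR-181b-5p the substitutions are A9U, C10U and A21G. Such near-identity means that RNA of one member bound by another member's probe cannot be told apart from that probe's own target.

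The 3p arms are the only probes that tell the gene copies apart, since miR-181a-5p and miR-181b-5p are each made from 2 genes. They carry other seeds, again in capitals.

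miR-181a-1-3p: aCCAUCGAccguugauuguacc
miR-181a-2-3p: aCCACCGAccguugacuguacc
miR-181b-1-3p: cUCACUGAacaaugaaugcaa
miR-181b-2-3p: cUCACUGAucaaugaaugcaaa
miR-181c-3p: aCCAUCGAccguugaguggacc
miR-181d-3p: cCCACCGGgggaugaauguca

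The seed CCAUCGA was common to miR-181a-1-3p and miR-181c-3p, and UCACUGA to miR-181b-1-3p and miR-181b-2-3p. The 3p products of the miR-181a copies differ by U5C, which lies in the seed, and U16C.

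The family has 6 genes in 3 clusters, none of which the array files locate, so positions are those of GENCODE M21 on GRCm38. Mir181a-1 (chr1:137966455-137966541) and Mir181b-1 (chr1:137966639-137966718) lie on the plus strand 97 bases apart, in an intron of the noncoding gene Gm4258. Mir181b-1 and the last 11 bases of Mir181a-1 also lie in an exon of the lincRNA A430106G13Rik on that strand, and the pair is opposite an intron of the lincRNA Gm26936. Mir181a-2 (chr2:38852735-38852810) and Mir181b-2 (chr2:38853830-38853918) lie 1019 bases apart on the plus strand, opposite an intron of Nr6a1, a nuclear receptor gene. Mir181b-2 is also opposite an exon of Gm44144. Mir181d (chr8:84178716-84178787) and Mir181c (chr8:84178873-84178961) lie 85 bases apart on the minus strand in an intron of Nanos3, an RNA-binding protein gene of germ cells.

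The hairpins of both miR-181a genes are shown with their mature arms in capitals, because they give one 5p product and separate 3p products.

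Mir181a-1: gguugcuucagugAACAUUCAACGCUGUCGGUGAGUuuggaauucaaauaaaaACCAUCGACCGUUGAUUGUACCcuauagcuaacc
Mir181a-2: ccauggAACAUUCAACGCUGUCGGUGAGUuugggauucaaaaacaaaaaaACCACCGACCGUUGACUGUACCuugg

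Intensities are given as the deposited median of the spot, then as net intensity after subtracting the mean of the blank spots, which was 128.5 for germ-free and 158.3 for SPF. The floor was a net intensity of 9.05 and 10.7, which is 2 SD of the blank spots. Net SPF values were multiplied by 0.849, so that the median of the 1471 miRNA probes above the floor on both arrays was equal. The technical SD given with each log2 value combines the spread of repeated control spots (0.0908 per spot on the log2 scale) with that of the blank spots. It holds no spread between arrays or animals, and each miRNA probe had 1 spot. Of the 10 family probes, 8 were above the floor on both arrays, against 77.4% of all miRNA probes. A stricter floor from 174 spots that carry no probe was passed on both arrays by the 4 5p arms only, against 54.8% of all miRNA probes.

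miR-181a-5p gave the highest intensity in the family on both arrays and was lower on the SPF array, whereas miR-181b-5p was higher there. The spot of miR-181a-5p read 1035 for germ-free and 802 for SPF mice. Its net intensity was 907 in germ-free and, after scaling, 546 in SPF mice. The log2 SPF over germ-free was -0.73 (technical SD 0.129), or 1.66-fold lower. Among the 1471 shared probes, 62 had a value at or below it. Its rank among the 1900 probes was 200 for germ-free and 252 for SPF mice.

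miR-181c-5p, the nearest relative of miR-181a-5p in sequence, was also lower on the SPF array. Its spot read 286 for germ-free and 282 for SPF mice, where the background was higher. Net intensities were 158 and, after scaling, 105, and the log2 value was -0.58 (technical SD 0.149), or 1.497-fold lower. Values at or below it were found for 116 of the 1471 shared probes.

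miR-181b-5p was higher on the SPF array under the reported processing and all 14 alternatives. Those that changed only the floor gave 0.33 to 0.35, moved the value by the common scaling factor alone and add nothing to its sign. Without background subtraction the value was 0.145, below the technical SD of 0.149. The spot of miR-181b-5p read 239 for germ-free and 319 for SPF mice, with net intensities of 110 and, after scaling, 137. The log2 value was 0.31 (technical SD 0.149), or 1.24-fold higher. That is 2.10 technical SD from 0, against 5.66 for miR-181a-5p and 3.92 for miR-181c-5p. With the larger spread of the spots that carry no probe in place of the blank spots, the values were 1.38, 5.50 and 2.61. A value at or above it was found for 208 shared probes, so it lay well within the range of the whole array.

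miR-181d-5p, the relative of miR-181b-5p in sequence, differed between the arrays by less than its technical SD. Its spot read 184 and 222, its net intensity was 55.1 on the germ-free and 54.4 on the scaled SPF array, and its log2 value was -0.02 (technical SD 0.212). The sign changed with the scaling, from -0.11 on spike controls to 0.22 without scaling.

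**Figure D1:**
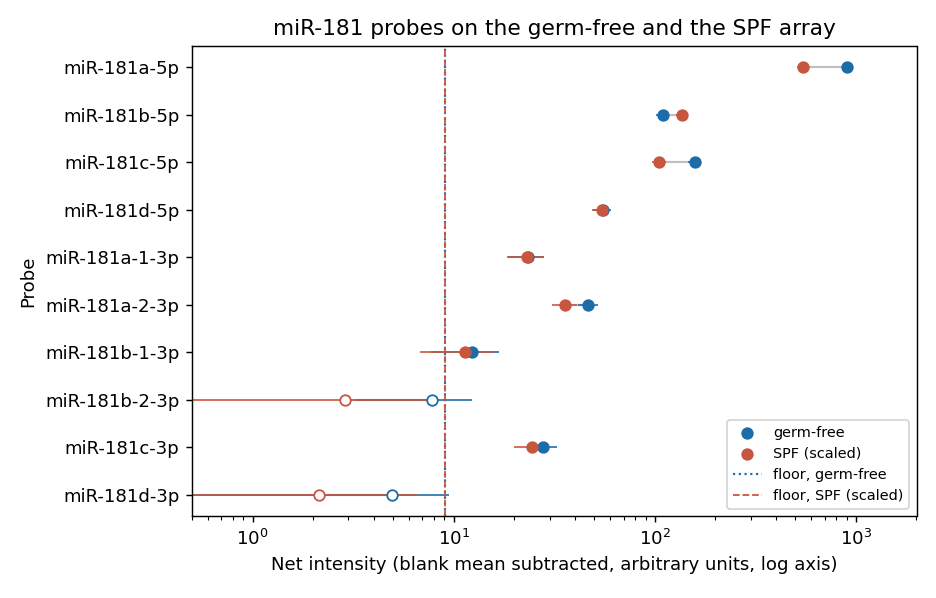
Net intensity (log axis, arbitrary units) of the 10 miR-181 probes for germ-free (blue) and SPF mice after scaling (red). Bars are the technical SD of a single spot, dashed lines the floors, and open circles values under the floor. miR-181a-5p and miR-181c-5p lie to the left on the SPF array, miR-181b-5p lies to the right, and both circles of miR-181b-2-3p and miR-181d-3p are under the floor.

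The readings of the 5p arms lay apart on these arrays. The log2 value of miR-181a-5p was below that of miR-181b-5p, with a difference of -1.04 (technical SD 0.198) or 5.29 technical SD (3.97 with the spread of spots that carry no probe). On the germ-free array the net intensity of the miR-181a-5p spot was 8.24 times that of the miR-181b-5p spot, and on the SPF array 3.997 times. These ratios do not depend on the scaling between arrays. Since probes differ in how well they bind, they do not give the ratio of molecules. They rest on 1 spot per probe and array, and the log2 values of all shared probes had an SD of 0.403, so no change between the groups is claimed from them.

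Under the reported processing, differences within the pairs of 5p arms alike in sequence were smaller in size than those between products of neighbouring genes. Not all were smaller by more than the technical SD. Without background subtraction this did not hold for all pairs, with miR-181a-5p at -0.64, miR-181c-5p at -0.29 and miR-181d-5p at 0.001. miR-181a-5p and miR-181c-5p differed by -0.15 (technical SD 0.197), and miR-181b-5p and miR-181d-5p by 0.33 (technical SD 0.259). miR-181c-5p and miR-181d-5p, whose genes are 85 bases apart, differed by -0.57 (technical SD 0.259), which in size is within a technical SD of the 0.33 between miR-181b-5p and miR-181d-5p. The difference of -1.04 above is that of products encoded side by side in the other clusters. miR-181b-5p lay 0.90 above miR-181c-5p (technical SD 0.211), and miR-181a-5p lay below miR-181d-5p with a difference of -0.71 (technical SD 0.248). With the spread of spots that carry no probe, miR-181c-5p and miR-181d-5p differed by 1.16 technical SD and miR-181a-5p and miR-181d-5p by 1.58. On that scale miR-181b-5p differed from miR-181c-5p by 2.82 and from miR-181d-5p by 0.68, and miR-181a-5p from miR-181c-5p by 0.57. Both miR-181a-5p and miR-181c-5p had lower log2 values than miR-181b-5p and miR-181d-5p under all 13 alternatives of background, scaling or floor in which the 4 had a value. Alternatives that changed only the floor or 1 common scaling factor left the difference of -1.04 as it was. They could not alter this order, so they add nothing to it.

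The 3p arms were dim, and none of them passed the floor from spots that carry no probe on both arrays, so their log2 values are of little weight. miR-181a-2-3p had the highest net intensity among them, 46.8 on the germ-free and 35.9 on the scaled SPF array, from spots of 175 and 201. Its log2 value was -0.38 (technical SD 0.263). miR-181a-1-3p, from the other miR-181a gene, read 152 and 186. Its net intensity was 23.4 on the germ-free and 23.2 on the scaled SPF array, and its log2 value was -0.01 (technical SD 0.416). The 3p products of the miR-181a genes thus differed by 0.37 (technical SD 0.492), so that a difference between the copies was not detectable at this signal.

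miR-181c-3p had net intensities of 27.8 and, after scaling, 24.7, with a log2 value of -0.17 (technical SD 0.376). miR-181b-1-3p was close to the floor, at 12.3 and, after scaling, 11.4, with a log2 value of -0.11 (technical SD 0.793). Apart from miR-181a-2-3p, at 1.46 technical SD, each 3p value was within 1 technical SD of 0. The signs of miR-181a-1-3p, miR-181b-1-3p and miR-181c-3p changed without scaling, to 0.23, 0.13 and 0.06. miR-181b-2-3p, with net intensities of 7.83 and 3.39 before scaling, and miR-181d-3p, with 4.93 and 2.52, were under the floor on both arrays, and no fold is given for them.

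No comparison of the arms of 1 precursor is given, since 0 of the 3p arms passed the stricter floor on both arrays. Of the spots that carry no probe, 66.7% in the germ-free scan and 71.8% in the SPF scan exceeded the floor that 4 of the 3p arms passed.

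Over the 8 probes above the floor on both arrays the median log2 value was -0.14, beside -0.06 over the 1471 probes of the whole array, but 0.09 without scaling and 0.05 with block medians subtracted. Values were negative for 7 of the 8, against 57.6% of all shared probes, and for 3 of the 8 without scaling or with block medians subtracted. They were negative for 4 of the 8 with loess scaling or without background subtraction, and for 7 with scaling on spike controls. The 57.6% is that of the reported processing only. The median of all shared probes was 0.18 without scaling, 0 with block medians subtracted and -0.15 on spike controls, so these counts moved together with the whole array. With the floor from spots that carry no probe, 2 of the 4 remaining probes were negative. Under the reported processing, with the floor from blank spots, the median was -0.30 for the 4 5p arms and -0.14 for the 4 3p arms above it. None of the 8 was at least 2-fold higher, which 1.56% of all shared probes were, and none was at least 2-fold lower, which 1.43% were. At a threshold of 1.5-fold 1 probe, miR-181a-5p, was lower, against 7.61% of all shared probes, and none was higher, against 4.62%.

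**Figure D2:**
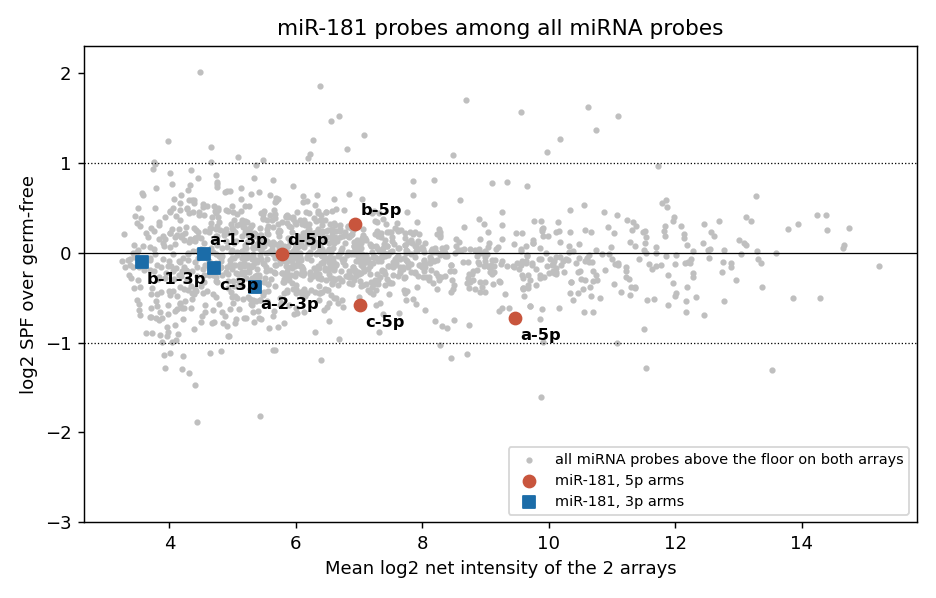
Log2 SPF over germ-free against the mean log2 net intensity of the 2 arrays for the 1471 miRNA probes above the floor on both (grey), with the 5p arms of miR-181 as red circles and the 3p arms as blue squares. Dotted lines mark 2-fold. No miR-181 probe crosses them, and miR-181a-5p at -0.73 and miR-181c-5p at -0.58 lie lowest in the family.

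The values of the 5p arms moved with the background and the scaling. With subtraction of the local background around the spot, miR-181a-5p had no value, because its local background on the germ-free array (1315) exceeded its signal (1035). This was so for 34 of the 1900 miRNA spots in the germ-free scan and for 8 in the SPF scan. Among spots with a signal above 500, as for miR-181a-5p, the numbers were 30 of 320 (9.4%) and 5 of 347 (1.4%). Under that setting miR-181b-5p was at 0.91, miR-181d-5p at 0.27 and miR-181c-5p at -0.67, while repeated control spots spread by 1.30 on the log2 scale. Without background subtraction miR-181a-5p was at -0.64, miR-181c-5p at -0.29 and miR-181b-5p at 0.15. Without scaling between arrays, which put the median of all shared probes at 0.18, they were at -0.50, -0.35 and 0.55. Scaling on spike controls put that median at -0.15 and the 3 miRNAs at -0.82, -0.67 and 0.22.

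**Figure D3:**
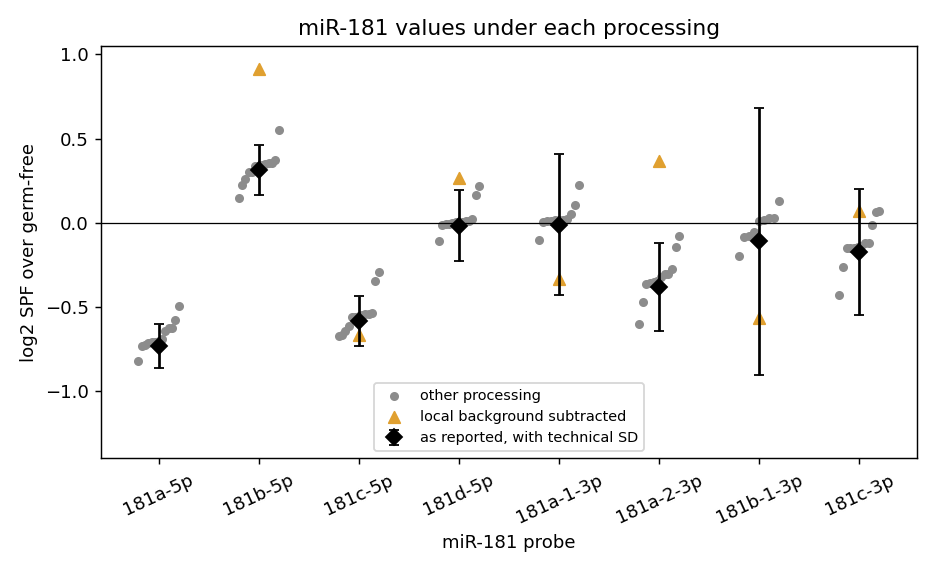
Log2 SPF over germ-free of the 8 miR-181 probes above the floor on both arrays, as reported (black diamonds, bars are the technical SD), with local background subtraction (orange triangles) and under the other alternatives (grey points). All points of miR-181a-5p and miR-181c-5p lie below 0 and all points of miR-181b-5p above 0, while those of miR-181d-5p and of the 3p arms, apart from the grey points of miR-181a-2-3p, fall on both sides.

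Leukocyte and epithelial miRNAs were read as markers of the cells in the isolate. All 6 leukocyte markers were above the floor on both arrays, against 77.4% of all miRNA probes, with spots from 536 upwards. Their summed net intensity was 29637 on the germ-free and 14808 on the scaled SPF array. Of these sums miR-150-5p alone gave 18699.5 and, after scaling, 7552. Its local background on the germ-free array (21608) exceeded its signal (18828), against 2077 and 9052 on the SPF array. Of the 6 markers, 5 were lower on the SPF array, against 57.6% of all shared probes. miR-150-5p of mature lymphocytes was at -1.31, while miR-223-3p of neutrophils and monocytes was at 0.74. All 8 intestinal epithelial markers, the miR-200 family with miR-192-5p, miR-194-5p and miR-215-5p, were also above the floor on both arrays. All 8 were 2-fold or more higher on the SPF array, against 1.56% of all shared probes. With scaling on spike controls 7 of the 8 were, against 17 of all 1471 shared probes. Without background subtraction it was 5 of the 8, against 6 of all 1471. Under the reported processing the log2 values of the 8 ran from 1.09 to 1.62. Their summed net intensity was 5458 on the germ-free and 14529 on the scaled SPF array. With local background subtraction, where some markers of both lists had no value, 1 leukocyte marker was lower. Under that setting 4 epithelial markers were higher on the SPF array, 0 of them by 2-fold or more. The part of these shifts in the miR-181 values was not tested. In RNA of a mixed isolate, fewer cells of a type and less of a miRNA per cell cannot be told apart.

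The 15 other miRNAs listed for lymphocyte development and activation had a median of -0.50, with 14 negative values, against 57.6% of all shared probes. Negative values numbered 11 without scaling, 15 with scaling on spike controls and 5 of the 11 available with local background subtraction. The 57.6% does not apply to these settings, since it is that of the reported processing. The list holds 5 of the 6 leukocyte markers above, all but miR-223-3p, so the lists are not independent. In this list 2 were at least 2-fold lower, against 1.43% of all shared probes. They were miR-150-5p and miR-142a-3p, a miRNA of all blood lineages, which lay at the threshold with -1.01. Only 1 was left under 10 of the 14 alternatives. Values near that of miR-181a-5p were found for miR-92a-3p of the miR-17 to miR-92a cluster at -0.74, miR-29a-3p at -0.70, miR-29c-3p at -0.67 and miR-142a-5p at -0.66. The other listed members of that cluster lay nearer to 0, from miR-19a-3p at -0.44 to miR-18a-5p at -0.02. The lymphocyte miRNA miR-342-3p was at -0.59 and miR-155-5p, induced on activation of B and T cells, at -0.36. miR-181b-5p at 0.31 lay above all 15, the highest of which was miR-146a-5p, a miRNA induced through NF-kappa B, at 0.07, except with local background subtraction, where it did not exceed them all. Under that setting the median of the 11 of these miRNAs that had a value was 0.14.

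**Figure D4:**
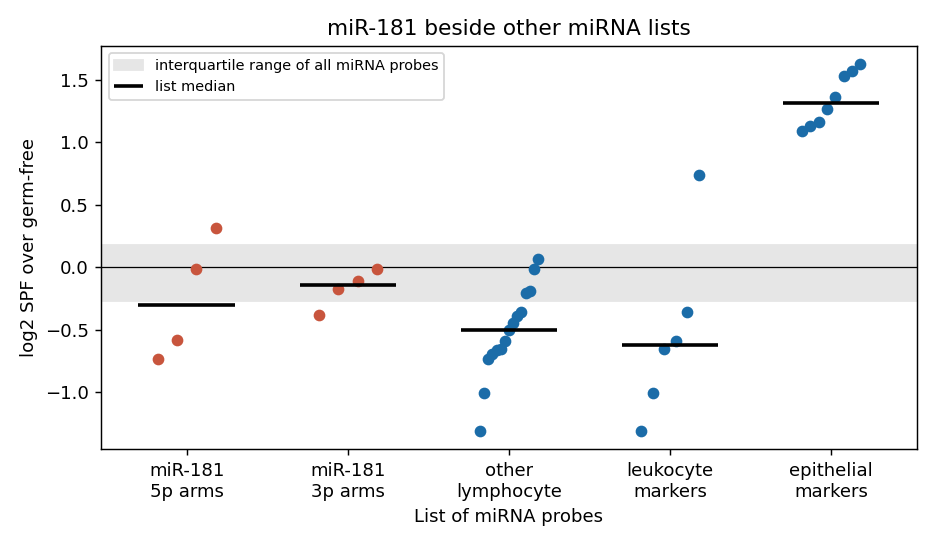
Log2 SPF over germ-free of single miRNA probes in 5 lists, with list medians as black bars and the interquartile range of the 1471 shared probes as a grey band. The 5p arms of miR-181 spread from -0.73 to 0.31, the 3p arms lie between -0.38 and -0.01, and all 8 epithelial markers lie above 1.

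The probes outside the family with the most similar pair of readings were found by distance on the log2 scale over the 2 arrays. For miR-181a-5p they were miR-1949 (distance 0.144, log2 value -0.62), miR-486a-3p (0.269, log2 value -0.48) and miR-7050-5p (0.283, log2 value -0.46). For miR-181b-5p they were miR-1930-3p (0.0340, log2 value 0.35), miR-7012-3p (0.0519, log2 value 0.33) and miR-3473d (0.0568, log2 value 0.25). A likeness over 2 arrays is a description of level only.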

How the data were processed

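Per the labels' protocols, a Qiagen kit served for extraction and an Exiqon kit for attaching the dye Hy5 to total RNA. Per the file headers, each array was scanned at 635 nm with 3 gains, and the authors deposited 2 intensity medians for every one of 3200 spots, that of the spot and that of its surroundings. The labels and headers name no array platform or scanner. No background subtraction or scaling is visible in the deposited columns.

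From these files net intensities, the floor, the scaling and log2 SPF over germ-free were computed with Python 3.11.15, numpy 2.4.6 and pandas 2.3.3. Of 896 blank spots, 1 marked NG on the SPF array was left out. The technical SD used 5 control probes of 8 spots each, all with intensities above 300, and the blank spots. Loess scaling used statsmodels 0.14.6 with a span of 0.4. The log2 computation was tested on simulated arrays, with noise drawn from the same control and blank spots as the technical SD. Recovery was checked for bright probes only, so the levels of miR-181d-5p and the 3p arms were not covered.

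All family probes are named. The others named are the list members, the cell type markers and the 3 nearest patterns of miR-181a-5p and miR-181b-5p. The family, lists and alternatives were chosen with earlier results of these data known. Alternatives changed the background, scaling, block correction, floor, fold threshold and arms.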

Additional observations from a re-analysis of the deposited data

How the results depend on the processing

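The numbers of arrays per group and of spots per probe, 1 each, limit all values. The 3p arms above the floor had technical SDs of 0.263 to 0.793, or 0.575 to 1.92 with the spread of spots carrying no probe. The family median of -0.14 ran from -0.52, with the mean of spots without a probe as background, to 0.09 without scaling between arrays, and was also positive, at 0.05 with block medians subtracted and 0.07 with local background subtraction. No family probe was 2-fold higher under any alternative. Without a floor 2 were 2-fold lower, miR-181b-2-3p at -1.42 and miR-181d-3p at -1.18, both under the floor on each array, and at 1.5-fold 1 was lower. The miR-181a-5p minus miR-181b-5p difference of -1.04 was -0.84 with block medians subtracted and -0.79 without background subtraction. Its other values ran down to -1.10, and local background subtraction gave none. miR-181a-5p stayed between -0.82 and -0.50. With local background subtraction miR-181a-2-3p was at 0.37 and the other lymphocyte list had a median of 0.14, with 3 members 2-fold higher. That median was -0.27 without scaling. The 2 members of that list at 2-fold lower became 1 with the equal total, quantile, loess and absent scalings, without background subtraction, with spots without a probe as background or floor, with the floor at mean + 5 SD, without a floor and with the pseudocount, since miR-142a-3p lies at the threshold, and 3 with local background subtraction. Background from the blank spots of the spot's own block was an alternative chosen after seeing the data and gave a family median of -0.15. Over all miRNA probes the counts at least 2-fold higher and lower moved from 23 and 21 to 6 and 3 without background subtraction, 39 and 9 without scaling, 97 and 51 with local background subtraction, 66 and 86 without a floor, 18 and 10 with the floor at mean + 5 SD and 17 and 6 with the floor taken from spots lacking a probe. No paired analysis was possible because each group has 1 array.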
